A study of Mus musculus with 4 samples.

Results

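The genes described here are 10 genes of fibroblast growth factor (FGF) signalling and of the negative feedback on the kinase ERK: the receptor genes Fgfr1, Fgfr2 and Fgfr3, the inhibitor genes Spry1, Spry2, Spry4 and Spred1, the ERK phosphatase gene Dusp6, and the transcription factor genes Etv4 and Etv5. They were chosen by gene symbol from 35857 genes listed for each library, and all 10 were found once. The libraries hold polyadenylated RNA of C57BL/6 mouse neural stem cells taken from embryonic cerebral cortex and collected as glial progenitors at 24 hr of induced glial differentiation. There were 2 control libraries from wild type cells and 2 Qk_KO libraries from cells labelled Qk-/-, a knockout of the gene for the RNA-binding protein Quaking whose protein was not measured here, and both groups had undergone the same induction. The labels say neither how Qk was removed nor whether a group's libraries were grown as separate cultures, so p-values measure only the spread between these libraries, which may be technical.

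FGF ligands bind receptor tyrosine kinases together with heparan sulfate, and the receptors signal through adaptor proteins, RAS, RAF and MEK to ERK. ERK in turn induces its own inhibitors: Sprouty and Spred proteins act on the RAS and RAF steps, and DUSP6 removes the activating phosphates from ERK in the cytoplasm. ETV4 and ETV5, members of the PEA3 group of ETS transcription factors, are induced by FGF signalling, and the RNA levels of these feedback genes are widely used as a readout of ERK activity. In the cortex FGF receptors are known for maintaining radial glial progenitors and for promoting glial fates.

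Levels are given as TPM, a share of all transcripts of a library that is corrected for transcript length and scaled to a fixed total, which can be compared between genes. TPM keeps no read depth, so the precision from read number is unknown and the errors here come from the spread between libraries. The SE and p-values of limma draw in part on that spread in other genes. The tables summed to 999999 to 1000001 TPM, with 18846 to 19387 genes above 0. Qk was at 208 and 215 TPM in the control libraries and at 36.1 and 43.7 TPM in the Qk_KO libraries, on the side that each label gives. Qk fell by 2.38 on the log2 scale (SE 0.12, adjusted p = 0.00708 in limma).

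In the Qk_KO libraries the feedback genes lay mostly lower and the receptor genes lay in both directions, but none of the 10 genes passed the test. Spred1, Fgfr3, Etv4, Spry2, Spry4, Spry1 and Dusp6 were lower in both Qk_KO libraries than in both control libraries, with Qk_KO means between 53.3% (Spred1) and 75.7% (Spry1) of control. Fgfr2, Fgfr1 and Etv5 were higher in both, at 137%, 112% and 111% of control. The median log2 fold change of the 10 genes was -0.46, against 0.04 over all genes tested. The differences of Fgfr3, Etv4, Spred1 and the 3 Sprouty genes had adjusted p between 0.0513 and 0.084 in limma, with 2 libraries a group. An adjusted p under 0.1 was also seen for 15% of all genes tested.

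The test was limma on log2(TPM + 1) over 13260 genes whose mean reached 1 TPM, with Benjamini-Hochberg adjustment over all of them and a threshold of 0.05, and a gene that passed is referred to as called. Of the 10 genes, all tested, 0 were called, where 430 of all genes tested, or 3.24%, were called (1.83% higher and 1.42% lower). At an unadjusted p under 0.05, 7 of the 10 passed in limma, 6 of them lower, where 28.4% of all genes tested passed and 12.6% passed on the lower side. The values of both groups did not overlap for any of the 10, with 7 lower and 3 higher. That was also true of 61.1% of all genes tested, 27.5% on the lower and 33.6% on the higher side. Genes vary together between libraries, so these counts are a description and not a test of the 10 genes as a set.

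**Figure D1:**
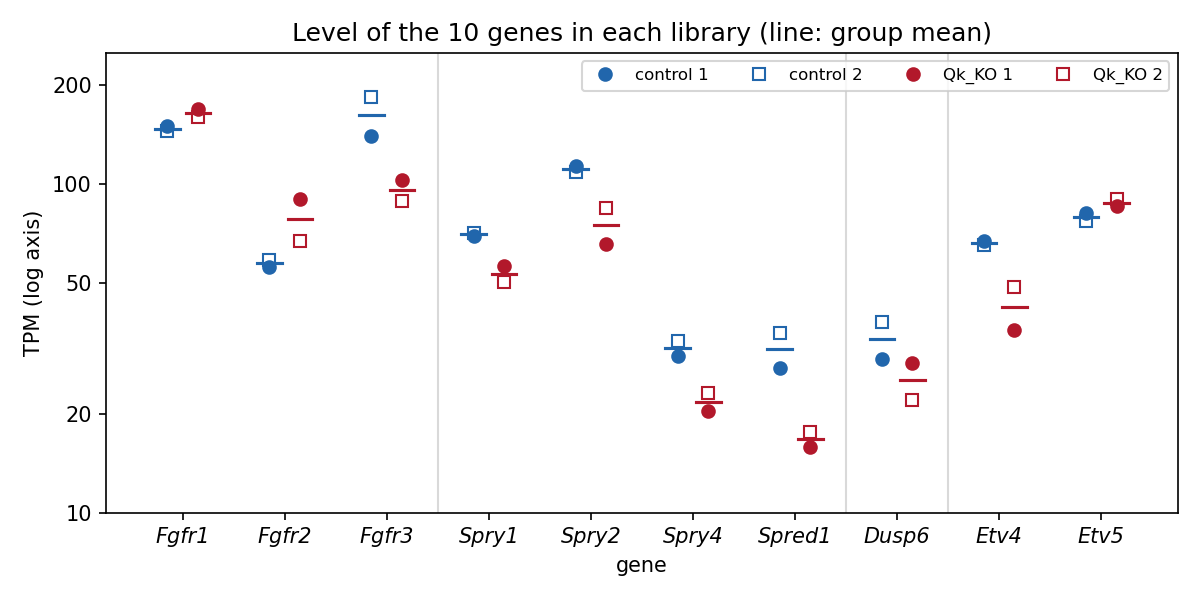
TPM on a log axis of each of the 10 genes in the 2 control (blue) and 2 Qk_KO (red) libraries, with a line at each group mean and vertical lines between receptors, Sprouty and Spred genes, Dusp6 and ETS factors. The Qk_KO points lie above the control points for Fgfr1, Fgfr2 and Etv5 and below them for the other 7 genes, closest for Dusp6 at 28.5 against 29.4 TPM.

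Fgfr1 and Fgfr3 had the highest mean levels of the 10 genes over the 4 libraries. Fgfr1 (Entrez gene 14182, chromosome 8, 25513654 to 25575718, plus strand, GRCm38) had control values of 149.9 and 145 TPM, in the order replicate 1, replicate 2 that is kept throughout, and Qk_KO values of 168 and 160.2 TPM. The groups lay apart by a margin that was small beside the level, and the log2 fold change was 0.16 (SE 0.09, adjusted p = 0.301). After removal of a library-specific GC trend the log2 fold change of Fgfr1 was -0.0014 (SE 0.09), so no difference was seen under this setting. It was 0.12 with median-ratio scaling and 0.14 with quantile scaling. Fgfr2 (Entrez gene 14183, chromosome 7, minus strand) was at 55.9 and 58.7 TPM in control and at 90.0 and 66.9 TPM in Qk_KO. The Qk_KO libraries differed more from each other than the controls did, and the log2 fold change was 0.43 (SE 0.16, adjusted p = 0.149). It was 0.22 without Qk_KO replicate 1 and 0.64 without Qk_KO replicate 2.

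Fgfr3 (Entrez gene 14184, chromosome 5, 33721674 to 33737068, plus strand), the receptor gene that marks glial progenitors and astrocytes in the developing brain, was at 140.2 and 184 TPM in control and at 103 and 89.0 TPM in Qk_KO. Both Qk_KO values lay under the lower control value, and the control values were themselves far apart. Its log2 fold change was -0.74 (SE 0.16, 95% interval -1.13 to -0.35, adjusted p = 0.0619). In bulk RNA, fewer cells that carry a transcript and less of it per cell cannot be told apart.

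Within each library the makeup of the receptor RNA differed while its sum did not separate the groups. The sum of Fgfr1, Fgfr2 and Fgfr3 was 346 and 387 TPM in control and 361 and 316 TPM in Qk_KO. Fgfr3 held 40.5% and 47.5% of this sum in control and 28.5% and 28.2% in Qk_KO, while Fgfr2 held 16.2% and 15.2% against 24.9% and 21.2%. The ratio of Fgfr3 to Fgfr1, which does not depend on the scaling of a library, was 0.935 and 1.27 in control and 0.61 and 0.555 in Qk_KO. An exact permutation test of 2 against 2 libraries (two-sided) cannot go below p = 0.333, the value it gave for this ratio and for these shares. Fgfr4, the remaining kinase receptor gene, was between 0.43 and 1 TPM in the 4 libraries and was not tested, and Fgfrl1, a receptor that lacks the kinase domain, was at 66.3 and 62.6 TPM in control and 69.7 and 53.1 TPM in Qk_KO, with overlapping groups (adjusted p = 0.751).

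**Figure D2:**
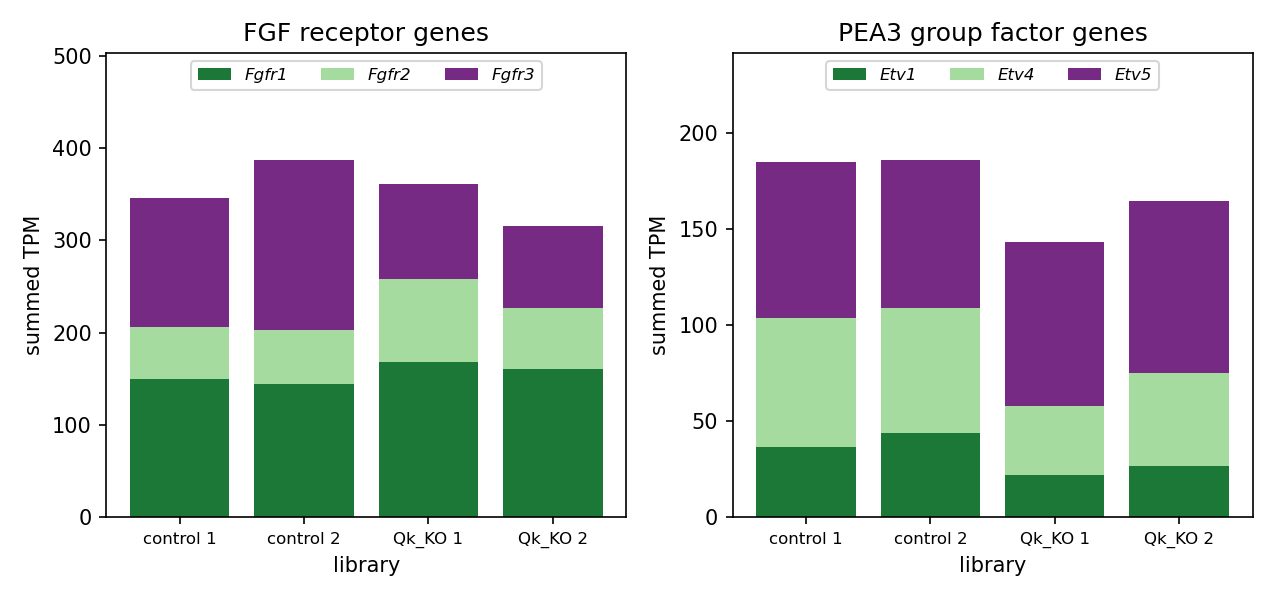
Stacked bars of TPM in each library for the receptor genes Fgfr1, Fgfr2 and Fgfr3 (left) and for the PEA3 group genes Etv1, Etv4 and Etv5 (right), on axes that start at 0. The Fgfr3 part is 40.5% and 47.5% of the receptor sum in control and 28.5% and 28.2% in Qk_KO, and Etv5 takes 59.6% and 54.5% of the PEA3 sum in Qk_KO against 44.1% and 41.3% in control.

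The Sprouty genes encode inhibitors that are recruited to the membrane after receptor activation. Spry2 (Entrez gene 24064, chromosome 14, 105891947 to 105896819, minus strand), the most abundant of them, was at 113 and 108 TPM in control and at 65.6 and 84.4 TPM in Qk_KO. Spry1 (Entrez gene 24063, chromosome 3, 37639947 to 37644598, plus strand) was at 69.5 and 71.1 TPM against 56.2 and 50.2 TPM. Spry4 (Entrez gene 24066, chromosome 18, 38586247 to 38601415, minus strand) was at 29.96 and 33.3 TPM against 20.3 and 23.1 TPM. For all 3 genes the control values were close to each other and both Qk_KO values lay under them. The log2 fold changes were -0.57 for Spry2 (SE 0.14, adjusted p = 0.0761), -0.52 for Spry4 (SE 0.13, adjusted p = 0.073) and -0.40 for Spry1 (SE 0.10, adjusted p = 0.084). Summed, these 3 genes were at 212 and 213 TPM in control and at 142 and 158 TPM in Qk_KO. Spry3 was not analysed here.

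Spred1 (Entrez gene 114715, chromosome 2, 117121374 to 117182279, plus strand), whose protein brings the RAS inhibitor neurofibromin to the membrane, had the largest difference of the 10 genes in the reported fit, though Fgfr3 exceeded it without Qk_KO replicate 1 (-0.84 against -0.79), and Fgfr3 (-0.90) and Etv4 (-0.81) exceeded it with the GC trend removed (-0.76). It was at 27.6 and 35.2 TPM in control and at 15.8 and 17.6 TPM in Qk_KO. The groups were well apart although the control libraries differed from each other, and the log2 fold change was -0.86 (SE 0.16, 95% interval -1.25 to -0.47, adjusted p = 0.0513). Its relatives stood at 54.3 and 53.6 against 46.4 and 50.6 TPM (Spred2, log2 fold change -0.15, adjusted p = 0.371) and at 40.0 and 34.4 against 26.4 and 26.7 TPM (Spred3, -0.47, adjusted p = 0.0799). The ratio of Spred1 to Spred2 was 0.508 and 0.656 in control and 0.340 and 0.348 in Qk_KO.

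Dusp6 (Entrez gene 67603, chromosome 10, 99263231 to 99267489, plus strand) was at 29.4 and 37.9 TPM in control and at 28.5 and 22.1 TPM in Qk_KO. Control replicate 1 and Qk_KO replicate 1 were nearly equal, so Dusp6 had the smallest gap of the 10 genes between the nearest values of the groups. Its log2 fold change was -0.40 (SE 0.18, 95% interval -0.85 to 0.06, adjusted p = 0.22), an interval that holds no difference. Its log2 fold change was -0.22 without control replicate 2 or without Qk_KO replicate 2, and -0.58 without replicate 1 of either group.

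The 2 ETS factor genes lay on different sides of control, Etv5 by a small margin. Etv4 (Entrez gene 18612, chromosome 11, 101769742 to 101785371, minus strand) was at 66.9 and 65.2 TPM in control and at 35.9 and 48.5 TPM in Qk_KO (log2 fold change -0.65, SE 0.16, adjusted p = 0.0749). Etv5 (Entrez gene 104156, chromosome 16, 22381309 to 22439719, minus strand) was at 81.5 and 76.8 TPM in control and at 85.6 and 89.7 TPM in Qk_KO (log2 fold change 0.15, SE 0.09, 95% interval -0.09 to 0.38, adjusted p = 0.355), and with the GC trend removed its value was 0.04 (adjusted p = 0.786). The 95% intervals of these genes, -1.04 to -0.25 for Etv4, do not meet, and the ratio of Etv4 to Etv5 was 0.821 and 0.848 in control and 0.42 and 0.541 in Qk_KO. The difference between the 2 genes' changes has no smaller exact permutation p than 0.333 and was not tested otherwise. Etv1, the third gene of the group, lay on the side of Etv4, at 36.6 and 43.9 TPM against 22.1 and 26.5 TPM (log2 fold change -0.71, SE 0.15, adjusted p = 0.0609).

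**Figure D3:**
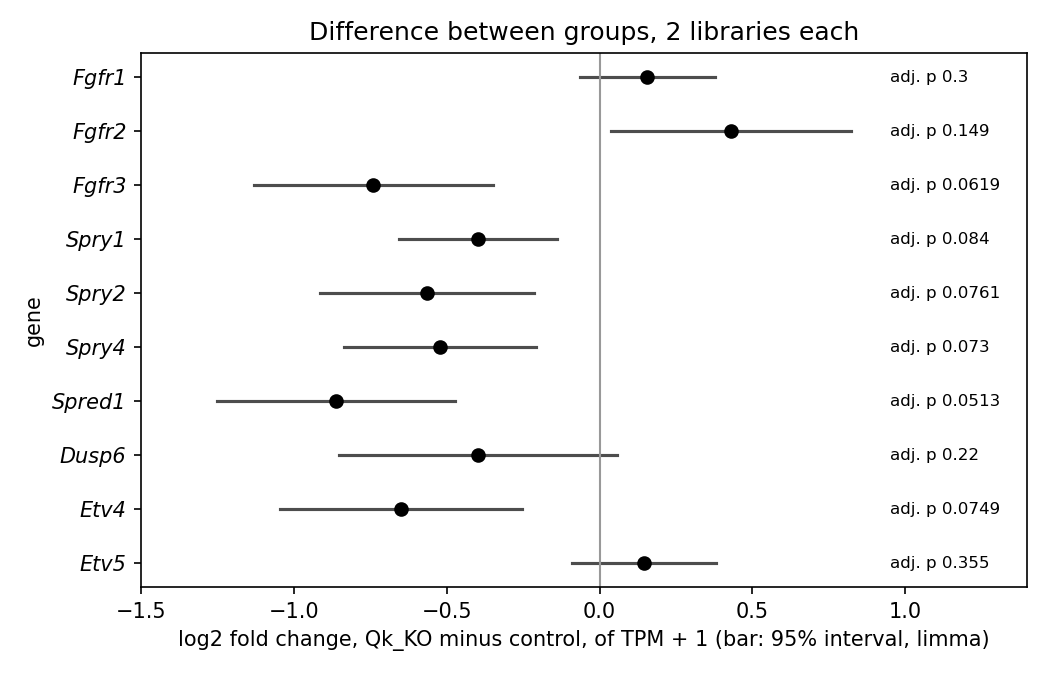
Log2 fold change of TPM + 1 (Qk_KO minus control, limma) of each of the 10 genes, with bars for the 95% interval of the single gene and the adjusted p over all genes tested at the right. The intervals of Fgfr3, Spry1, Spry2, Spry4, Spred1 and Etv4 lie below 0, that of Fgfr2 lies above 0, and all adjusted p are above 0.05, the smallest being 0.0513 for Spred1.

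In control the order of levels was Fgfr3, Fgfr1, Spry2, Etv5, Spry1, Etv4, Fgfr2, Dusp6, Spry4 and Spred1, from 162 ± 30.7 down to 31.4 ± 5.39 TPM (SD, n = 2). Neighbours in this order whose library values overlapped were Fgfr3 with Fgfr1, Dusp6 with Spry4, and Spry4 with Spred1. In Qk_KO the order was Fgfr1, Fgfr3, Etv5, Fgfr2, Spry2, Spry1, Etv4, Dusp6, Spry4 and Spred1, from 164 ± 5.77 down to 16.7 ± 1.31 TPM. There the values of Fgfr3 overlapped with those of Etv5, Etv5 with Fgfr2, Fgfr2 with Spry2, and Dusp6 with Spry4.

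By the distance between the centred log2(TPM + 1) values of the 4 libraries, the genes with a pattern most like that of Spred1 were Vps35, Me1, 6820431F20Rik, Cry1 and Mospd2, at distances of 0.047 to 0.065 log2 units. Vps35, an endosomal sorting subunit, was at 119 and 149 TPM in control and 70.6 and 75.2 TPM in Qk_KO. The 4 libraries give little by which to tell patterns apart.

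Quaking binds RNA at a response element with the core ACUAAC or ACUAAU, helped by a nearby UAAC or UAAU. The 3' UTR sequences of the 10 genes (GENCODE M21, GRCm38, the longest 3' UTR of a protein-coding transcript per gene) were therefore searched on the RNA strand for ACTAAC and ACTAAT. The core letters were in 6 of the 10 (60.0%), namely Fgfr1, Fgfr2, Spry2, Spry4, Etv5 and Dusp6, and in 35.3% of the 12274 genes tested that have a 3' UTR in this annotation. The 10 genes had a median 3' UTR of 1508 bases against 1258.5, so the shares are not over equal lengths. A second TAAC or TAAT within 20 bases stood beside the core in Fgfr1 alone of the 10 genes (10.0%), against 15.3%. The core was in the 3' UTR of all 3 genes that lay higher and in 3 of the 7 that lay lower. It was absent from Spred1, whose 3' UTR of 4330 bases is the longest of the 10, and from Fgfr3, Spry1 and Etv4. A match is a description of letters and not a site of binding. The 3 matches of Spry4 are not shown. For 5 of the 6 genes the site is shown with its flanks, 30 bases in DNA letters, 5′ to 3′ on the gene's strand, GRCm38, with the core in capitals.
Fgfr1, chr8:25574384-25574413, plus strand: cttaattccaatACTAATttgctttgctga
Fgfr2, chr7:130163165-130163194, minus strand: ttacgatatatgACTAATttggggggaaat
Spry2, chr14:105892277-105892306, minus strand: acaaaatattatACTAATatgttgtacatt
Etv5, chr16:22382412-22382441, minus strand: ttctccatgctcACTAACtctccttctctg
Dusp6, chr10:99266650-99266679, plus strand: gttgcatctggaACTAACtatatatattgt

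Because several of the genes lay lower together, their promoters were searched for motifs of transcription factors that ERK acts on. RefSeq sequences (GRCm38.p6, 250 bases before to 50 bases after a start) were searched for 7 of the 10 genes. These were Fgfr2, Fgfr3, Spry1, Spry2, Spred1, Etv5 and Dusp6, with 9 starts in all. No promoter of Fgfr1 or Etv4 was in the source used, and Spry4, which lay lower, was left out of the search. The counts over the 9 starts therefore say nothing of Fgfr1, Etv4 or Spry4. The ETS motif CCGGAAG was in 0 of the 9 on either strand, against 16.9% of the promoters of genes tested and 8.86% of all 32851 promoters in the table. The ETS motif AGGAAG, which can share its first 2 letters with the end of the first motif, was in 3 of the 9 (33.3%), 1 start each of Fgfr2, Etv5 and Dusp6, against 31.9% and 35.4%. The AP-1 motif TGANTCA was in 0 of the 9, against 4.78% and 7.81%. No match says only that these letters are not in this window. The promoters of Dusp6 and Spry2, which lay lower, and of both starts of Etv5, which lay higher, are shown to let them be compared, 5′ to 3′ on the gene's strand, with AGGAAG or its complement CTTCCT in capitals.
Dusp6, chr10:99262981-99263280, plus strand: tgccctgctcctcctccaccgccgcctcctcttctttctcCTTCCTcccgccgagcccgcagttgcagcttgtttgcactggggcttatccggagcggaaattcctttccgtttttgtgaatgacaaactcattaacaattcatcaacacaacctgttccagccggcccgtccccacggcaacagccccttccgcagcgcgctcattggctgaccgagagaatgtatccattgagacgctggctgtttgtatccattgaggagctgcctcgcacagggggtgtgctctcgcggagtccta
Spry2, chr14:105896770-105897069, minus strand: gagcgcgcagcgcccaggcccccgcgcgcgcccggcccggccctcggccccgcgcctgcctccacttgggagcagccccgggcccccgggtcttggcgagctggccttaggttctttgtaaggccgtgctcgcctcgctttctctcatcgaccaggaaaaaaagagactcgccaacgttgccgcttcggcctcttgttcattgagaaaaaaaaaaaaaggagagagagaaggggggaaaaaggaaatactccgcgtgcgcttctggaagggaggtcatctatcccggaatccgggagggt
Etv5, chr16:22439521-22439820, minus strand: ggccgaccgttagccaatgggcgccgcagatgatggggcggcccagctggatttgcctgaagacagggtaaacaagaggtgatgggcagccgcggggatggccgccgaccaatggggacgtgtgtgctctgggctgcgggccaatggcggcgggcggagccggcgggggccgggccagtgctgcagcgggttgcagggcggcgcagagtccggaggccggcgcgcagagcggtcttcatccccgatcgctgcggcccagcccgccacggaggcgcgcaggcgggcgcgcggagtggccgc
Etv5, chr16:22438319-22438618, minus strand: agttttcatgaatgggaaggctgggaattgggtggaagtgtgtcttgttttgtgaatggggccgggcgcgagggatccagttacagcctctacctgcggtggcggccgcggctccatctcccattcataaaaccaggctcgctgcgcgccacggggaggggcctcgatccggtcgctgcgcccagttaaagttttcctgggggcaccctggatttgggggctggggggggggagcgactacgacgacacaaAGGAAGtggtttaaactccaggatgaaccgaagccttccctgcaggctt
In the Dusp6 window the match begins 210 bases before the start and in the downstream Etv5 window 1 base after it, so genes that lay lower and higher both hold it, and the Spry2 and upstream Etv5 windows hold none of the motifs searched. The GC content of these windows was 57.3% for Dusp6, 62.7% for Spry2 and 74.0% and 60.0% for Etv5, against a median of 61.3% for promoters of genes tested.

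The rest of the pathway was taken from lists. Of 18 FGF ligand genes only Fgf1 and Fgf2 reached the mean of 1 TPM needed for the test, and 0 of the 2 were called. Fgf1 was at 1.80 and 2.72 TPM in control and 3.91 and 6.19 TPM in Qk_KO (adjusted p = 0.111), and Fgf2 was at 2.98 and 4.48 against 1.4 and 1.6 TPM (adjusted p = 0.085). Of the other FGF receptor and co-receptor genes 0 of 5 tested were called, with Fgfbp3, which carries FGFs in the extracellular space, at 20.4 and 24.7 against 48.1 and 27.5 TPM. The intracellular FGF homologues, which do not signal through the receptors, had 0 of 4 called, with Fgf11 at 26.4 and 24.9 against 14.5 and 19.9 TPM and Fgf13 at 9.54 and 7.34 against 14.1 and 9.56 TPM.

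Heparan sulfate proteoglycans and their sulfation enzymes, which set how FGFs reach the receptors, had 0 of 23 genes tested called, with a median log2 fold change of 0.26. The values did not overlap and were higher in Qk_KO for 11 of the 23 genes, and lower for 1. Over all genes tested 33.6% lay higher and 27.5% lower without overlap. Sulf2, which removes sulfate from heparan sulfate outside the cell, was at 139.5 and 174 TPM in control and at 270.03 and 221 TPM in Qk_KO (adjusted p = 0.0705), and the glypican gene Gpc4 was at 139 and 139.7 against 223 and 141 TPM.

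Among adaptors and the RAS-ERK cascade 2 of 30 genes rose, 0 fell and the other 28 were not called, with a median of 0.09. Over all genes tested 1.83% were called higher and 1.42% lower. The values of 11 genes of this list were lower without overlap and those of 12 higher, against 27.5% and 33.6% of all genes tested. Mapk3, which encodes ERK1, rose from 146 and 110.2 TPM to 241 and 228 TPM (log2 fold change 0.88, SE 0.15, adjusted p = 0.048), and Rps6ka2, which encodes a ribosomal S6 kinase activated by ERK, rose from 27.3 and 25.5 TPM to 52.8 and 49.2 TPM (0.92, SE 0.11, adjusted p = 0.0324). The other negative regulators of this pathway had 0 of 18 genes called and a median of -0.20. Of these 18 genes 10 were lower and 4 higher in both Qk_KO libraries than in both controls. By contrast, 27.5% of all genes tested lay lower and 33.6% higher without overlap. Pebp1, an inhibitor of RAF, was at 1047 and 980.1 against 1247 and 1393 TPM, and Lrig1, an inhibitor of receptor tyrosine kinases, at 137 and 128 against 87.3 and 113 TPM.

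Among other ERK-responsive genes 1 of 22 rose, 3 fell and the other 18 were not called, with a median of -0.36. Over all genes tested 1.83% were called higher and 1.42% lower. Epha2, an ephrin receptor gene, fell from 30.03 and 43.1 TPM to 14.9 and 14.5 TPM (log2 fold change -1.24, adjusted p = 0.0426), Phlda1 fell from 28.9 and 33.6 TPM to 17.99 and 16.6 TPM (-0.82, adjusted p = 0.0438), and the G1 cyclin gene Ccnd1 fell by 1.13 on the log2 scale (adjusted p = 0.0404). Dusp1, a nuclear phosphatase of several MAP kinases, rose from 36.6 and 39.1 TPM to 74.0 and 61.1 TPM (0.81, adjusted p = 0.0434). The values of 13 genes of this list were lower without overlap and those of 6 were higher, against 27.5% and 33.6% of all genes tested. Of the other receptor tyrosine kinase genes 0 of 23 rose and 2 fell, against 1.83% and 1.42% of all genes tested, with a median of 0.02. Pdgfra fell by 2.29 on the log2 scale (adjusted p = 0.0461), and Axl fell from 63.3 and 69.3 TPM to 38.5 and 36.1 TPM (adjusted p = 0.0387).

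The 8 called genes of these lists lay close to the threshold. With control replicate 1, control replicate 2 or Qk_KO replicate 1 left out, all 8 lost the call, at adjusted p of 0.0843 to 0.128, 0.229 to 0.275 and 0.0683 to 0.111, and without Qk_KO replicate 2 the call was lost for 7 of the 8 (0.0371 to 0.0919 over the 8). All 8 calls were also lost with no filter (0.122 to 0.145) and without limma's trend (0.0652 to 0.0867), and 2 were lost under quantile scaling (0.0357 to 0.0506 over the 8). Their directions were the same in each of these fits.

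**Figure D4:**
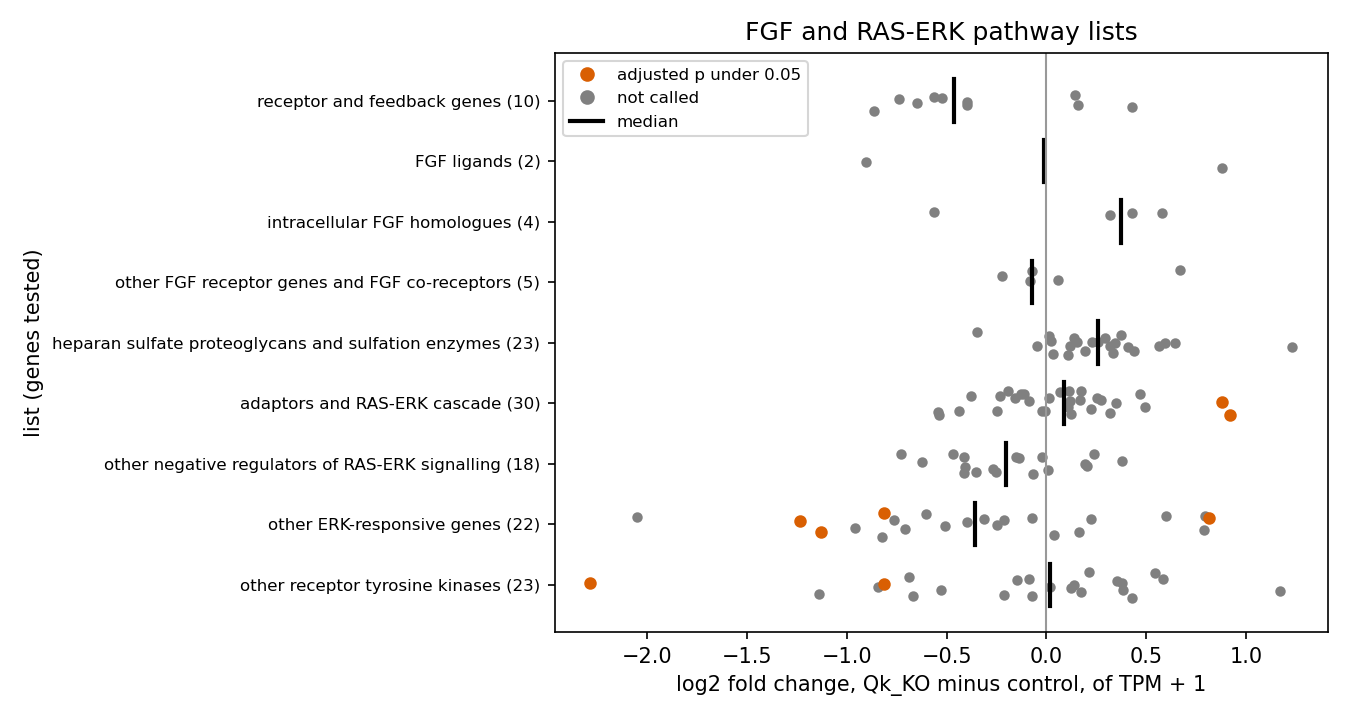
Log2 fold change of TPM + 1 (Qk_KO minus control) of each gene tested in the 10 receptor and feedback genes and in 8 pathway lists, with called genes in orange and the median of each list as a black line. The medians are -0.46 for the receptor and feedback genes, -0.36 for other ERK-responsive genes and -0.20 for other negative regulators. They are -0.07 for other FGF receptor and co-receptor genes and -0.01 for FGF ligands. Above 0 lie other receptor tyrosine kinases (0.02), adaptors and the RAS-ERK cascade (0.09), the heparan sulfate list (0.26) and the intracellular FGF homologues (0.38).

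Markers of cell types differed between the same libraries. Over all genes tested 1.83% were called higher and 1.42% lower. Of the neural stem cell and glial progenitor markers 1 of 12 rose, Pax6 (226% of control), and 1 fell, Slc1a3 (34.5%). The summed level was 6385 to 6485 TPM in control and 6445 to 6629 TPM in Qk_KO, most of it Fabp7 and Vim. Sox2, Nes and Fabp7 were present in all 4 libraries. Oligodendrocyte lineage markers had 0 of 6 tested higher and 1 lower, with a sum of 184 to 240.4 TPM in control and 93.1 to 129 TPM in Qk_KO, and Mog at 0 throughout. Neuron markers had 1 of 10 higher, Snap25, and a sum of 312 to 494 against 633 to 734 TPM, a difference that was mostly Tubb3 (275 and 126 against 512 and 383 TPM). Other neuron markers tested were not called and lay on both sides. Gad1 was at 425%, Rbfox3 at 161%, Syt1 at 138%, Dcx at 133% and Map2 at 102% of control. Stmn2 was at 74.8%, Neurod6 at 45.4% and Neurod2 at 31.0% of control. Microglia and macrophage markers had 0 of 6 called and a sum of 36.3 to 43.3 against 16.1 to 21.1 TPM. The values of all 6 were lower in Qk_KO without overlap, where 27.5% of all genes tested were. Their median log2 fold change was -1.01. C1qb was at 9.89 and 9.58 against 5.09 and 3.24 TPM, and P2ry12 at no more than 0.04 TPM. The sum of fibroblast, meninges and pericyte markers (0 of 5 called) was 1174 to 1339 against 1642 to 3522 TPM, nearly all of it Acta2, while Col1a1 was at 15.9 to 26.6 TPM. Ependymal and choroid plexus markers had 1 of 3 higher, Folr1, with sums of 17.5 to 20.75 against 20.65 to 33.9 TPM. Most of each sum was Foxj1, at 19.2 and 16.5 against 18.8 and 15.3 TPM. Otx2 was at 0.61 and 0.24 against 8.71 and 1 TPM. Foxj1 and Otx2 were not called, and Tmem212 and Ccdc153 were at 0. Endothelial markers had 0 of 2 called and sums of 5.47 to 7.17 TPM over all 4 libraries, and no erythroid marker was tested. The part of these differences in the levels of the 10 genes was not tested.

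The calls of the 10 genes depended on the settings of the fit. Of 15 alternatives, Spred1 passed in 5, Fgfr3 in 2, and Spry1, Spry4 and Etv4 in 1 each, the last 3 all with the GC trend removed, where 5 of the 10 genes were called, all of them lower. Fgfr1, Fgfr2, Spry2, Etv5 and Dusp6 passed in none of the 15.

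**Figure D5:**
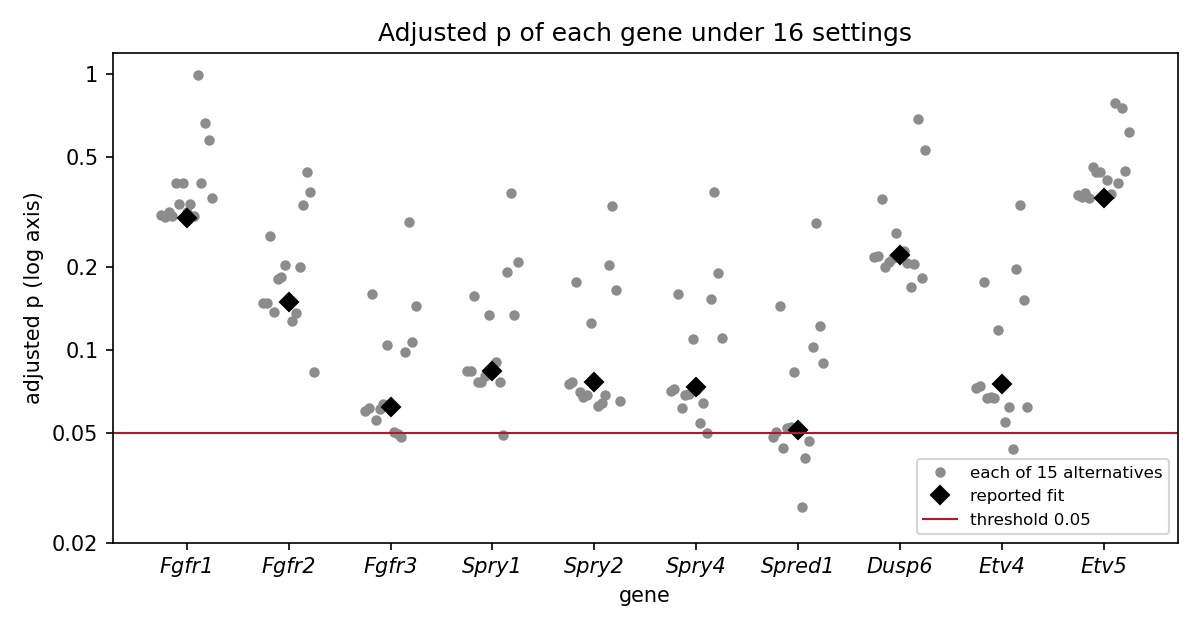
Adjusted p (log axis) of each of the 10 genes in the reported fit (diamond) and in 15 alternatives (grey points, side by side), with a line at the threshold of 0.05. The reported values all lie above the line, and points below it are seen for Spred1, Fgfr3, Spry1, Spry4 and Etv4.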

How the data were processed

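Per the labels' protocols, libraries of polyadenylated RNA were read on an Ion Proton instrument. For each library the authors deposited a table of TPM by gene. Per the submitters' processing notes the tools were STAR 2.4.1d and RSEM 1.3.0, and GRCm38.p4 and mm10 the builds. Annotation, read filters, strand setting and depth were not given in the sources used here. Each TPM value is a share of a total, so a higher level of some genes lowers the rest, and without the strand setting reads of overlapping genes cannot be told apart.

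The 4 libraries (2 control, 2 Qk_KO, grouped by their labels) entered 1 fit of log2(TPM + 1) over the 13260 of 35857 genes whose mean reached 1 TPM. It used limma 3.58.1 (lmFit, eBayes with a trend, 5.57 moderated degrees of freedom) in R 4.3.3. Tests were two-sided, p-values were adjusted over the 13260 genes by Benjamini-Hochberg, and calls were made under 0.05. Fold changes on this scale understate the change of low genes. The script was tested on simulated data. The 10 genes and the lists were chosen with earlier results of these data known.

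Named were the 10 genes, Qk, their family members, and in each pathway list up to 4 called genes by size of change or, with none called, the 2 with the highest mean TPM. The marker genes named, and Vps35 among the genes most like Spred1, were picked after their values were seen. Of the list entries, Anos1 and Spry3 were not matched. Alternatives changed the pseudocount (0.1, 0.5), the filter (none, or 5 TPM), the scaling (quantile, median-ratio) and limma's settings (robust, or no trend). Others added the replicate number as a block, dropped small RNA genes, removed a loess trend on GC content per library (12462 genes, span 0.3), or left out 1 library. Gene positions and 3' UTRs came from GENCODE M21 and promoters from RefSeq. Figures used matplotlib 3.10.9 in Python 3.11.15.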

Additional observations from a re-analysis of the deposited data

How the results depend on the processing

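The number of the 10 genes called was 0 in the reported fit, 1 with a pseudocount of 0.1, at a mean of at least 5 TPM and with the replicate number as a block, 2 with small RNA genes left out and 5 with the GC trend removed, all of them lower. It was 0 in the other alternatives, those that left out 1 library each included (0 to 0). The count over all genes was 430 (242 higher, 188 lower). It was 0 with no filter (4327 at an unadjusted p under 0.05 in limma), 649 at a mean of at least 5 TPM, 41 without a trend, 1278 with the replicate block, 794 without small RNA genes, 778 with the GC trend removed (337 higher, 441 lower) and 4 to 148 with 1 library left out (control replicate 1: 10, control replicate 2: 4, Qk_KO replicate 1: 60, Qk_KO replicate 2: 148). The 5 TPM filter and the small RNA and GC alternatives tested fewer genes and no filter tested more. The cause of the shifts was not tested. The replicate numbers are not stated to pair libraries, and deviations of same-numbered libraries from their group means correlated at r = 0.114 across genes. Of 150 values of the 10 genes under the alternatives 1 changed sign, that of Fgfr1, at -0.0014 with the GC trend removed. Since the 2 groups did not overlap for any of the 10 genes, settings that only leave out a library or change the pseudocount, filter, trend or block could not turn a sign. The same alternatives, run for the genes named outside the 10 as a choice made after seeing the data, turned the sign of Fgfrl1 alone, which ranged from -0.28 without Qk_KO replicate 1 to 0.11 without Qk_KO replicate 2. The call of Qk was lost without control replicate 1 (adjusted p = 0.0554, limma), without control replicate 2 (0.0772) and with no filter (0.108). Read depth is unknown, so what depth limits could not be stated.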
